A study of Mus musculus with 8 samples.

Results

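Heat shock and DnaJ genes were followed in mouse embryonic stem cells (ESCs) depleted of Kdm2b. They were taken by symbol: every gene whose name starts with Hspa, Hspb, Hsph, Hspd, Hspe, Hsp90a or Dnaj, leaving out Hspa5 and Hspbp1. On the array, 69 such genes of 19938 had at least 1 probe set that names the gene alone. They were 11 Hspa genes, 9 genes named Hspb, 45 Dnaj genes, and Hsph1, Hspd1, Hspe1 and Hsp90aa1. The RefSeq gene table (GRCm38.p6) holds 71 protein-coding genes with such names. Of the other 2, Hspa1b is read only by a probe set shared with Hspa1a, and Hsp90ab1 has no name in the annotation used here. That table also lists 16 pseudogenes of this kind, 12 of them named for Hspd1 or Hspe1, and 0 of them had a probe set of their own. The names bring together more than cytosolic proteins: 11 DnaJ members lie in or are anchored to the endoplasmic reticulum (ER), 6 DnaJ members and Hspa9, Hspd1 and Hspe1 belong to mitochondria, and Hspbap1 and Hspb11 carry small heat shock protein names without being chaperones of that family. The genes are therefore called heat shock and DnaJ genes here and not cytosolic chaperones.

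Members of the HSP70 family (Hspa genes) bind exposed stretches of unfolded proteins and release them in a cycle driven by ATP. DnaJ proteins deliver the clients and set off ATP hydrolysis, and HSP110 proteins exchange the nucleotide so that the client is let go. Small heat shock proteins hold unfolding proteins without ATP, HSP90 matures signalling proteins, and HSP60 with its lid HSP10 folds proteins inside mitochondria. In stressed cells a subset of these genes is switched on by heat shock factors, while ESCs hold many of the others at a high level without stress.

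The study asked how gene expression changes when KDM2B, a protein that binds unmethylated CpG islands and brings Polycomb repressive complex 1 to them, is depleted. Both groups were E14 cells, a feeder-independent ESC line grown on gelatine, stably carrying a puromycin-selected lentiviral shRNA. The study's methods name 10 ng/mL LIF in the medium of another ESC line and do not restate the medium for E14. In the shKdm2b group (n = 4 arrays, passages 27 to 30) 1 shRNA sequence targeted Kdm2b, and in the shScr group (n = 4 arrays, passages 28 to 31) it was 1 scrambled sequence. At each replicate number the control cells had been passaged 1 time more than the knockdown cells. The labels call the 4 samples of a group biological replicates and the sources do not say that they came from separate derivations of the line, so that p-values measure the spread between these samples. Log2 signals of Kdm2b ran from 8.68 to 9.45 in knockdown and from 10.74 to 11.34 in control arrays (log2 fold change -2.05, adjusted p = 0.000891 from limma). Array medians lay between 8.47 and 8.53. The mean of 12 ESC markers was 12.86 to 13.03 in control and 13.00 to 13.05 in knockdown arrays, with all 12 above the median of the probe sets. That of 12 fibroblast markers was 8.08 to 8.42 in control and 8.14 to 8.40 in knockdown arrays, that of 8 primitive endoderm markers 8.93 to 9.11 and 8.92 to 9.25, and that of the 7 neural markers measured 8.87 to 9.08 and 8.68 to 8.82. Among these markers Thy1 rose (log2 fold change 0.72) and Pax6 fell by 1.01 on the log2 scale. Their part in the results below was not tested.

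Of the 69 heat shock and DnaJ genes, Dnajc5g and Hspa12a rose in knockdown cells, 0 fell and 67 did not pass. A gene was called when most of its own probe sets had an adjusted p under 0.05 in limma and the most significant of them changed at least 1.5-fold. The rule called 2.90% of these genes and 2.85% of all 19938 genes, so that the share was near that of all genes. The arrays read RNA of whole cultures, in which a change in the number of expressing cells and a change in RNA per cell cannot be told apart. It called 1.42% of all genes as higher and 1.43% as lower. Without the fold limit 5 genes passed, Dnajc5g and Hspa12a as higher and Hspbap1, Hsph1 and Dnajc2 as lower, which was 7.25% against 10.3% of all genes (higher 5.75%, lower 4.55%). An unadjusted p under 0.05 was found for 20 genes, 9 higher and 11 lower, while 30.4% of all genes passed this limit (3352 higher and 2711 lower). Knockdown and control arrays did not overlap for 14 genes (20.3%, all genes 21.0%), of which 4 were higher and 10 lower (2350 and 1831 of all genes). Of the 69 genes, 55 had a mean signal above the median of all probe sets, as had 11517 of all genes. The shares of these 55 were below those of the 11517. The rule called 1.82% against 3.94%, and without the fold limit 7.27% against 14.7% passed. An unadjusted p under 0.05 was found for 29.1% against 40.4%, and groups without overlap for 21.8% against 27.9%.

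The sizes of the differences were near those of genes at large, while fewer lay above 0. The log2 fold change was above 0 for 35 genes (50.7%, all genes 61.7%) and below 0 for 34. Its median was 0.00 (all genes 0.05) and its range from -0.54 to 1.24. Its size had a median of 0.15 (all genes 0.12), and 54 genes (78.3%) lay within 1.2-fold, against 80.4% of all genes. For 59 of the 69 genes (85.5%, all genes 86.8%) the whole 95% confidence interval of the difference stayed within 1.5-fold in either direction. When the replicate number was added as a block, 14 of the 69 genes passed the adjusted p with no fold limit, 9 higher and 5 lower. This was a larger share than the 14.2% of all genes that passed with the block. Without the block the share of these genes was the smaller one (7.25% against 10.3%). These 14 held all 5 of the genes named above. The 9 additional genes were Dnajb2, Dnajc22, Dnajc28, Dnajc4, Hspa2, Hspb6 and Hspb8, all higher, and Dnaja1 and Dnajc11, both lower. With the fold limit 2 genes passed under the block too.

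**Figure D1:**
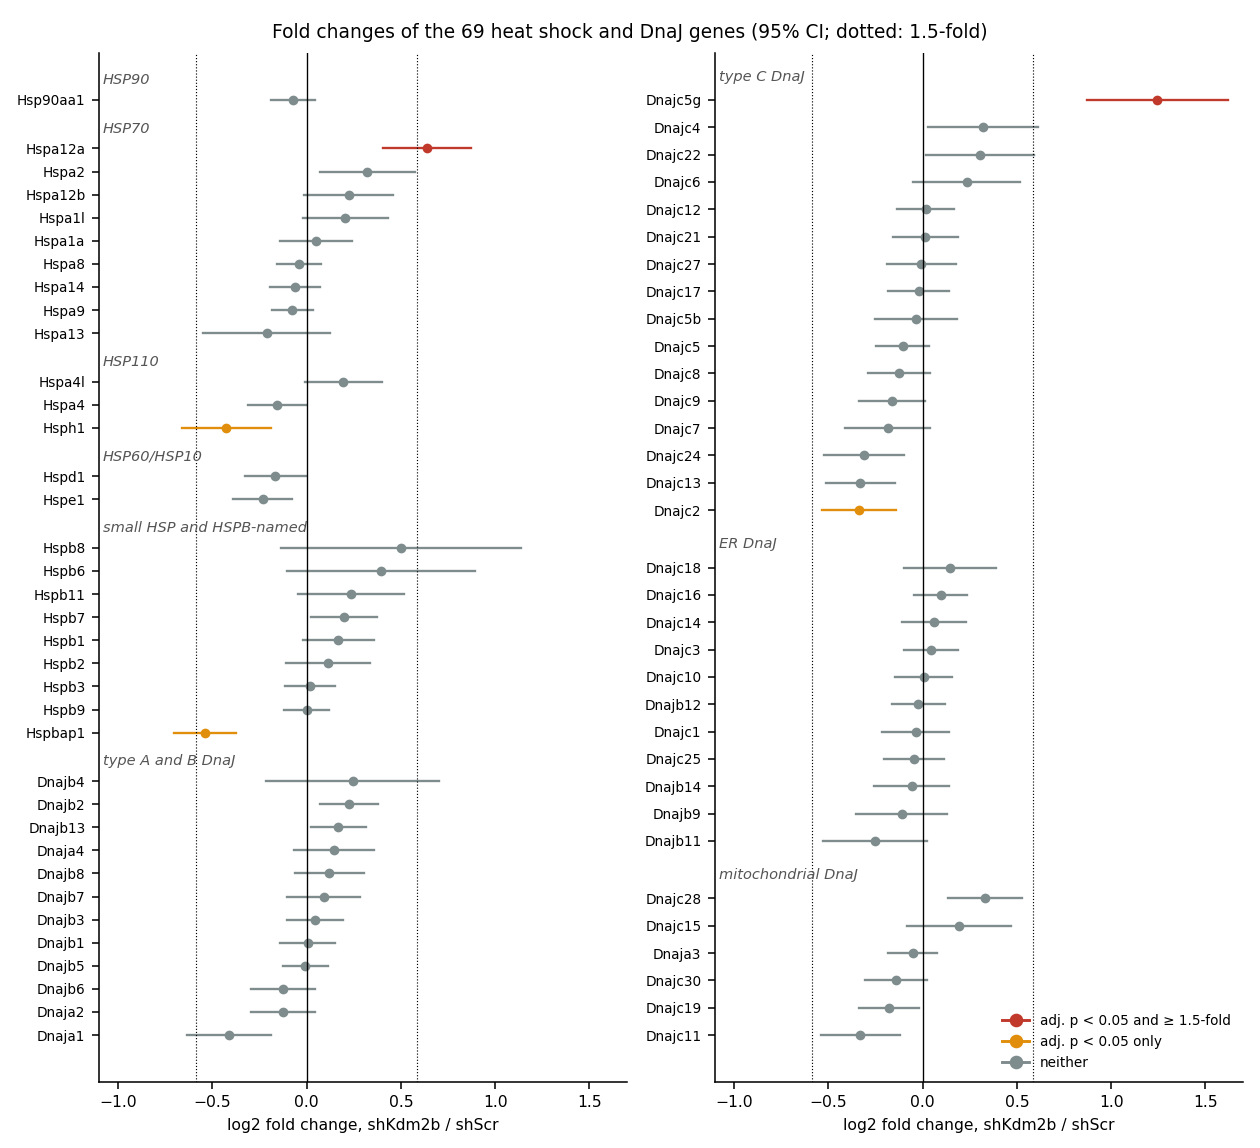
Log2 fold change (shKdm2b over shScr, horizontal axis) of the 69 heat shock and DnaJ genes, grouped by class, each a point for the probe set with the smallest p and a line for the 95% confidence interval from limma (4 arrays against 4). Red marks the 2 genes past the gene rule, orange the 3 with an adjusted p under 0.05 for most of their probe sets but a smaller change, grey the others, and the dotted lines mark 1.5-fold. Most intervals lie between the dotted lines, and Dnajc5g stands alone on the right.

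Dnajc5g encodes the gamma form of cysteine string protein, a J-domain protein known from the testis. Knockdown replicates 1 to 4 read 7.75, 7.54, 8.14 and 8.36 on the log2 scale, where control replicates 1 to 4 read 6.70, 6.81, 6.71 and 6.61. All 8 arrays lay below the array medians, so that both groups were dim, and every knockdown array lay above every control array. This gave a log2 fold change of 1.24 with a 95% confidence interval of 0.87 to 1.62 (standard error 0.16, adjusted p = 0.00514 from limma), a 2.37-fold difference. The relatives differed in this: Dnajc5, the alpha form on synaptic vesicles, had -0.10 on the same scale (standard error 0.06, adjusted p = 0.323), and Dnajc5b, the beta form, had -0.03 (standard error 0.10, adjusted p = 0.848). The difference between the 3 relatives was not tested. In the fit over the passages that both groups hold (28 to 30, with the passage as a block) Dnajc5g no longer passed, with a log2 fold change of 1.28 and an adjusted p of 0.0550 in limma.

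Hspa12a encodes a distant and atypical relative of HSP70. It read 9.52, 9.42, 9.14 and 9.44 in knockdown and 8.96, 8.65, 8.62 and 8.73 in control replicates 1 to 4. Knockdown replicate 3 was the lowest of its group and control replicate 1 the highest of the other, and the groups did not overlap. Hspa12a was 1.56-fold higher, at 0.64 on the log2 scale with a 95% confidence interval of 0.40 to 0.87 (standard error 0.10, adjusted p = 0.0105 from limma), which lies close to the fold limit. Over the shared passages it was 0.59 with an adjusted p of 0.0879 in limma, so that the call was lost. The near relative Hspa12b had 0.22 (standard error 0.10, adjusted p = 0.216).

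Hspbap1 encodes a protein found as a partner of HSPB1, with a JmjC fold. The log2 signal was 11.62, 11.49, 11.72 and 11.45 in knockdown and 12.03, 12.14, 12.10 and 12.16 in control replicates 1 to 4. Every knockdown array was below every control array by a clear margin. The difference was -0.54 on the log2 scale with a 95% confidence interval of -0.70 to -0.38 (standard error 0.07, adjusted p = 0.00525 from limma), which passed the adjusted p and not the fold limit. Without knockdown replicate 3 it was -0.59, and Hspbap1 then passed the whole rule. Over the shared passages it was -0.54 with an adjusted p of 0.0713 in limma, which no longer passed.

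KDM2B binds CpG dinucleotides, so the promoter sequences of these 3 genes, which had the smallest p of the 69, are shown with every CpG in capitals. Each is the stretch of 250 bases before the transcription start from RefSeq (GRCm38.p6), 5′ to 3′ on the strand of the gene. Dnajc5g lies on the plus strand (chr5:31108069-31108318), Hspbap1 on the plus strand (chr16:35770136-35770385) and Hspa12a on the minus strand (chr19:58943673-58943922).
Dnajc5g: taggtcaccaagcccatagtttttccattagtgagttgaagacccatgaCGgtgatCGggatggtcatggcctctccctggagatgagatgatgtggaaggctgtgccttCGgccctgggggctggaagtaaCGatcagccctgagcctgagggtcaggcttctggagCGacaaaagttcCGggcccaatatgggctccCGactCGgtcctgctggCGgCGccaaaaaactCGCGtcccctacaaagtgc
Hspbap1: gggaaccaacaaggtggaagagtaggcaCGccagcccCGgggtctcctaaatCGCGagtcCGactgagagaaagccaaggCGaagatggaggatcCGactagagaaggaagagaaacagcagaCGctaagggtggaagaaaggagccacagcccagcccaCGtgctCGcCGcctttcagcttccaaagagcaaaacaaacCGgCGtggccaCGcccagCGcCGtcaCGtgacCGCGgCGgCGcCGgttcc
Hspa12a: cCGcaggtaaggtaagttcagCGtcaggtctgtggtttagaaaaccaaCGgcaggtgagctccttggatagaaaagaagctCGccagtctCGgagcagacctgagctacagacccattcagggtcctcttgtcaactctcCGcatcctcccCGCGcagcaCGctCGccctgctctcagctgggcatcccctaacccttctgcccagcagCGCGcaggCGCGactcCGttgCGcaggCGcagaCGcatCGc
These stretches held 12 CpG in Dnajc5g, 22 in Hspbap1 and 19 in Hspa12a. Over the whole window of 300 bases, which runs to 50 bases after the start, there were 15, 26 and 25. RefSeq windows were at hand for 56 of the 69 genes, and these held a median of 24 CpG (range 1 to 44), against 8 (range 0 to 67) over 27025 RefSeq genes. That set is wider than the genes of the array, which were not compared alone. A gene with several windows was given its highest count. Binding of KDM2B at these windows was not measured by the arrays.

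Of the 9 measured HSP70 members, mitochondrial Hspa9 included, Hspa12a alone was called, 5 had a log2 fold change above 0 and 4 below. Hspa8, the constitutive HSP70, read 14.27, 14.38, 14.40 and 14.42 in knockdown and 14.41, 14.43, 14.39 and 14.41 in control replicates 1 to 4 (log2 fold change -0.04, standard error 0.05, adjusted p = 0.658 from limma), and its 3 probe sets ran from -0.04 to -0.01. Both groups of Hspa8 overlapped. Another 2 probe sets name Hspa8 together with small nucleolar RNA genes that lie in its introns, and these had -0.33 and -0.31 (adjusted p = 0.117 and 0.125). Hspa1a, the classical heat-inducible HSP70, read 9.35, 9.07, 9.01 and 9.12 in knockdown and 9.20, 9.09, 9.01 and 9.05 in control arrays. Its log2 fold change was 0.05 (standard error 0.08, adjusted p = 0.743), and that of the probe set shared with its near-identical copy Hspa1b was 0.08 (adjusted p = 0.473). Hspa2, a form known from the testis, read 9.52, 9.26, 9.09 and 9.34 in knockdown and 9.21, 8.94, 8.81 and 8.96 in control arrays, with overlapping groups (log2 fold change 0.32, standard error 0.11, adjusted p = 0.112). Within the 4 numbered pairs the difference was 0.32, 0.32, 0.28 and 0.38, and the adjusted p of the blocked limma fit was 0.0186.

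Hsph1, an HSP110 protein, was lower in knockdown cells. It read 11.48, 11.69, 11.96 and 11.53 in knockdown and 11.99, 12.10, 12.11 and 12.16 in control replicates 1 to 4. Knockdown replicate 3 lay just under the lowest control array, while the others stood further off. Its log2 fold change of -0.43 (adjusted p = 0.0405 from limma, standard error 0.10) did not reach the fold limit. The adjusted p exceeded 0.05 when any 1 array other than knockdown replicate 3 was left out, with a highest value of 0.108. The other HSP110 genes had -0.15 (Hspa4, standard error 0.07, adjusted p = 0.191) and 0.20 (Hspa4l, standard error 0.09, adjusted p = 0.208). Hspa4l read 8.59, 8.45, 8.36 and 8.63 in knockdown and 8.39, 8.11, 8.34 and 8.41 in control arrays, which overlapped.

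Dnaja1, a type A DnaJ partner of HSP70, read 12.40, 12.51, 12.79 and 12.35 in knockdown and 12.85, 12.94, 13.01 and 12.88 in control replicates 1 to 4. The groups did not overlap, with knockdown replicate 3 again nearest to the control arrays. On this probe set Dnaja1 was lower by a log2 fold change of -0.41 (adjusted p = 0.0389 from limma, standard error 0.10). The second had -0.48 (adjusted p = 0.0876) with overlapping groups, so that there was no majority, and a probe set shared with the microRNA gene Mir207 had 0.17 (adjusted p = 0.149). In the blocked limma fit the adjusted p of the first was 0.0219 and Dnaja1 passed the majority.

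Hspd1 and Hspe1 encode HSP60 and HSP10 of the mitochondrial chaperonin and share a promoter region on chromosome 1. Hspe1 read 13.25, 13.34, 13.54 and 13.33 in knockdown and 13.57, 13.65, 13.59 and 13.58 in control replicates 1 to 4, with no overlap (log2 fold change -0.23, standard error 0.07, adjusted p = 0.0760 from limma). Hspd1 read 13.44, 13.61, 13.74 and 13.50 in knockdown and 13.72, 13.73, 13.75 and 13.75 in control arrays (log2 fold change -0.16, standard error 0.07, adjusted p = 0.181). Here knockdown replicate 3 lay among the control arrays. The second probe set of Hspe1 had -0.19 (adjusted p = 0.0843 from limma) with no overlap. That of Hspd1 had -0.18 (unadjusted p = 0.0572, adjusted p = 0.209) with overlapping groups. Hsp90aa1, the inducible HSP90, read 13.96, 14.03, 14.03 and 14.10 in knockdown and 14.14, 14.11, 14.06 and 14.10 in control arrays (log2 fold change -0.07, standard error 0.05, adjusted p = 0.403). These groups overlapped, while on its other probe sets, at -0.06 and -0.05 (adjusted p = 0.412 and 0.501 from limma), they did not.

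Dnajb1, the main cytosolic DnaJ partner of inducible HSP70, had almost equal means, with a log2 fold change of 0.01 (adjusted p = 0.965 from limma, standard error 0.06). It read 10.72, 10.71, 10.78 and 10.83 in knockdown and 10.90, 10.71, 10.69 and 10.72 in control replicates 1 to 4, so that the groups overlapped. Dnajb4, of the same type, read 9.24, 9.43, 9.55 and 9.44 in knockdown and 9.83, 8.90, 8.85 and 9.10 in control arrays. Control replicate 1 was the highest of all 8 arrays and the other control arrays lay below every knockdown array. For Dnajb4 this came to 0.25 on the log2 scale (adjusted p = 0.474, standard error 0.20), and without that array it was 0.47 (adjusted p = 0.0302 in limma).

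Genes named for small heat shock proteins lay mostly above 0: 8 of 9 (88.9%, all genes 61.7%) had a log2 fold change above 0, with a median of 0.17, and Hspbap1 was the exception. Only Hspb7 of the 8 had an unadjusted p under 0.05 (log2 fold change 0.20, standard error 0.08, adjusted p = 0.145 from limma). Small heat shock proteins with other names are not in this count. Of these Cryab had -0.95 (standard error 0.37, adjusted p = 0.155 from limma), while Cryaa had 0.16 and Odf1 0.11. Hspb1, HSP27 in human cells and HSP25 in mouse, read 13.63, 13.69, 13.68 and 13.61 in knockdown and 13.70, 13.54, 13.32 and 13.38 in control replicates 1 to 4 (log2 fold change 0.17, standard error 0.08, adjusted p = 0.243). Hspb8, which works with BAG3 in the removal of misfolded proteins, read 11.46, 10.67, 10.48 and 10.98 in knockdown and 11.15, 10.08, 10.11 and 10.24 in control arrays. Replicate 1 was the highest of both groups, and the groups overlapped. Its log2 fold change was 0.50 (standard error 0.28, adjusted p = 0.297), and without control replicate 1 it was 0.75 (adjusted p = 0.0744). Within the numbered pairs Hspb8 was higher by 0.31, 0.59, 0.37 and 0.74, and the blocked limma fit gave a standard error of 0.09 and an adjusted p of 0.0245. Hspb6, a small heat shock protein of muscle, had a log2 fold change of 0.40, with pair differences of 0.29, 0.28, 0.50 and 0.51 and an adjusted p of 0.0221 in limma with the block against 0.292 without it.

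The heat-inducible genes were described together from a list of 14, of which 12 were measured: Hspa1a, Hspa8, Hsph1, Hspa4l, Hsp90aa1, Hspb1, Hspb8, Dnaja1, Dnajb1, Dnajb4, Hspd1 and Hspe1. None was called (0 of 12). In limma 1 had an adjusted p under 0.05 for most probe sets (8.33%, all genes 10.3%) and 4 an unadjusted p under 0.05 (33.3%, all genes 30.4%), all lower. Of the 12, 6 had a log2 fold change above 0 and 6 below, with a median of -0.02, and for 8 (66.7%, all genes 86.8%) the confidence interval lay within 1.5-fold. The 4 lower genes were Hsph1, Dnaja1, Hspd1 (on 1 of its 2 probe sets) and Hspe1.

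**Figure D2:**
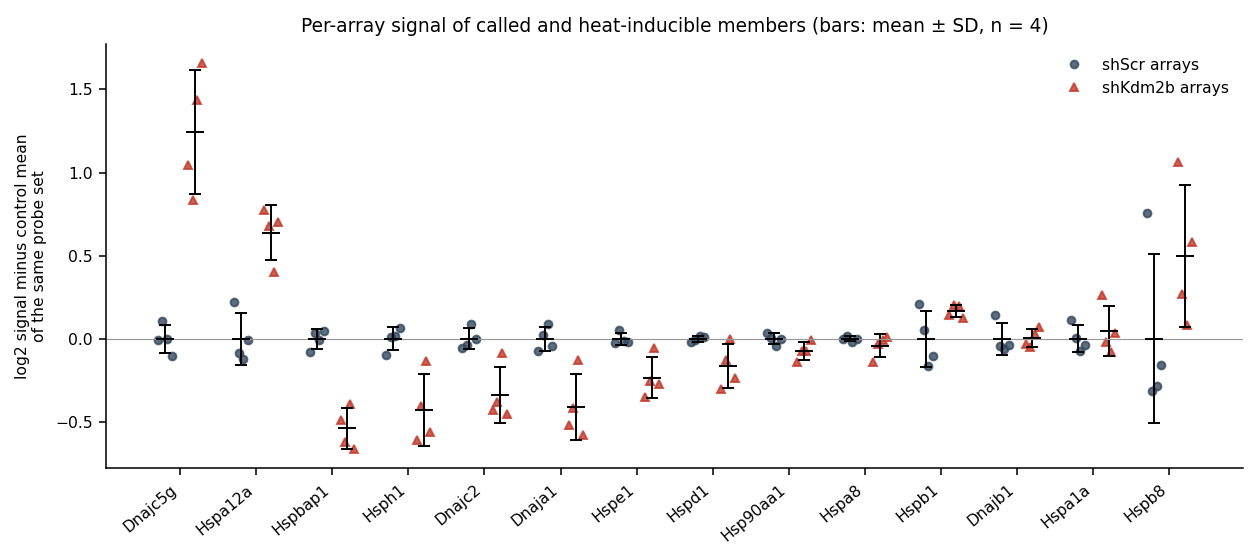
Log2 signal of 14 heat shock and DnaJ genes in each of the 8 arrays (vertical axis), as the difference from the mean of the 4 shScr arrays. Points are arrays and bars the mean with its SD (n = 4 per group). For Hsph1, Dnaja1, Hspe1 and Hspd1 knockdown replicate 3 is the knockdown array nearest to the control mean, and for Hspb8 control replicate 1 stands above the other control arrays.

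The largest class were the type C DnaJ proteins outside the ER and mitochondria, which share only the J domain. Of 16, Dnajc5g was called, 6 had a log2 fold change above 0 and 10 below. Dnajc2, a co-chaperone on the ribosome that also binds ubiquitylated histone H2A, read 10.70, 10.76, 11.05 and 10.68 in knockdown and 11.08, 11.10, 11.22 and 11.13 in control replicates 1 to 4. The groups did not overlap, although knockdown replicate 3 came close to the lowest control array. The log2 fold change of Dnajc2 was -0.34 (standard error 0.09, adjusted p = 0.0486 from limma), and the adjusted p exceeded 0.05 when any 1 array other than knockdown replicate 3 was left out. Hspa14, the HSP70 with which it works on the ribosome, had -0.06 (standard error 0.06, adjusted p = 0.547). Dnajc24, which takes part in the synthesis of diphthamide on elongation factor 2, had -0.31 (standard error 0.09, adjusted p = 0.0778).

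Dnajc13, an endosomal J protein, was read by 15 probe sets, more than any other of these genes. All 15 had a log2 fold change below 0, from -0.65 to -0.17 with a median of -0.26. The most significant had -0.33 (standard error 0.08, adjusted p = 0.0404 from limma) and was the only 1 of 15 with an adjusted p under 0.05, so that Dnajc13 was not called. An unadjusted p under 0.05 was found for 12 and groups without overlap for 11. Knockdown replicate 1 was the lowest of the 8 arrays on all 15 probe sets. Without it all 15 were still below 0, from -0.34 to -0.04, with 11 at an unadjusted p under 0.05 and 0 at an adjusted p under 0.05. The probe sets read 1 transcript in the same RNA and are not independent replicates.

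**Figure D3:**
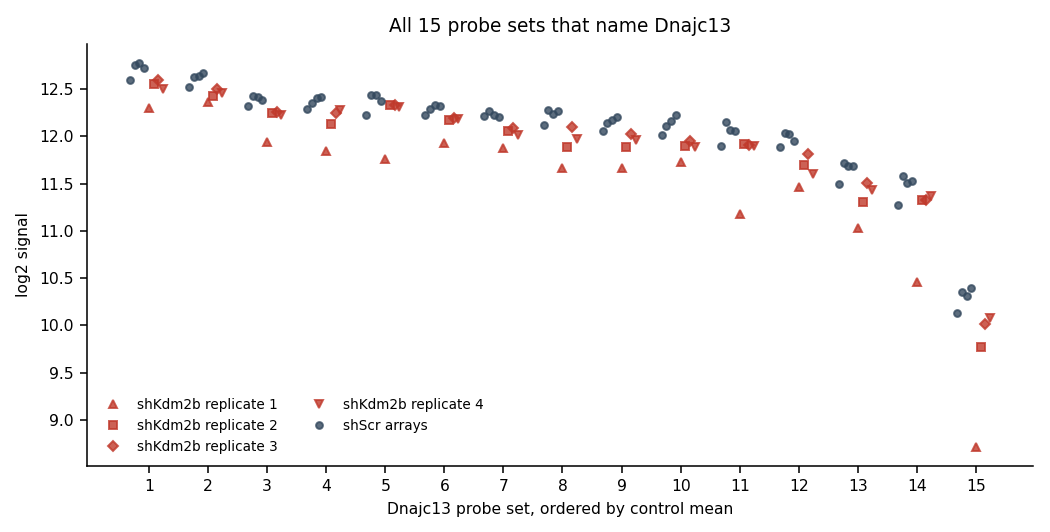
Log2 signal (vertical axis) of the 15 Dnajc13 probe sets, ordered along the horizontal axis by the mean of the 4 control arrays, with 1 point for each of the 8 arrays. Knockdown replicate 1 is the lowest array on all 15, and the knockdown mean is below the control mean on all 15.

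DnaJ proteins of type A and B outside the ER and mitochondria numbered 12, with 8 log2 fold changes above 0, a median of 0.07 and 0 calls (3 at an unadjusted p under 0.05). Dnajb2, a neuronal DnaJ with ubiquitin-interacting motifs, had 0.23 (standard error 0.07, adjusted p = 0.0798 from limma) and Dnajb13, a sperm flagellum protein, had 0.17 (standard error 0.06, adjusted p = 0.140). Dnajb6, which holds back aggregation, was split by the annotation. Its own probe set was dim (log2 fold change -0.12, standard error 0.07, adjusted p = 0.339), and 4 probe sets shared with the predicted gene Gm4247 had -0.27 to -0.22 with adjusted p from 0.109 to 0.118. The 11 DnaJ proteins of the ER and its membrane all lay within 1.2-fold, with 0 at an unadjusted p under 0.05. Some serve the ER chaperone Hspa5 inside the ER, while others, such as Dnajb12 and Dnajb14, face the cytosol. Hspa5 itself had -0.13 (standard error 0.09, adjusted p = 0.393). Of the 6 mitochondrial DnaJ proteins, 3 had an unadjusted p under 0.05 and 0 were called. They were Dnajc28 at 0.33 (standard error 0.09, adjusted p just over 0.05), Dnajc11 at -0.33 (standard error 0.09, adjusted p = 0.0616) and Dnajc19, a part of the import motor, at -0.18 (standard error 0.07, adjusted p = 0.153).

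Differences ran along the signal. Across the 69 genes the log2 fold change and the mean log2 signal had a Spearman rho of -0.58, and across all 19938 genes it was -0.18. These are descriptions across genes, which share the same 8 arrays and are no independent replicates. Of the 14 heat shock and DnaJ genes below the median signal of all probe sets 12 had a log2 fold change above 0 (85.7%, all dim genes 75.3%), and of the 55 above it 23 had (41.8%, all bright genes 51.7%). RMA can compress the differences of dim probe sets, and its part in this relation was not tested.

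**Figure D4:**
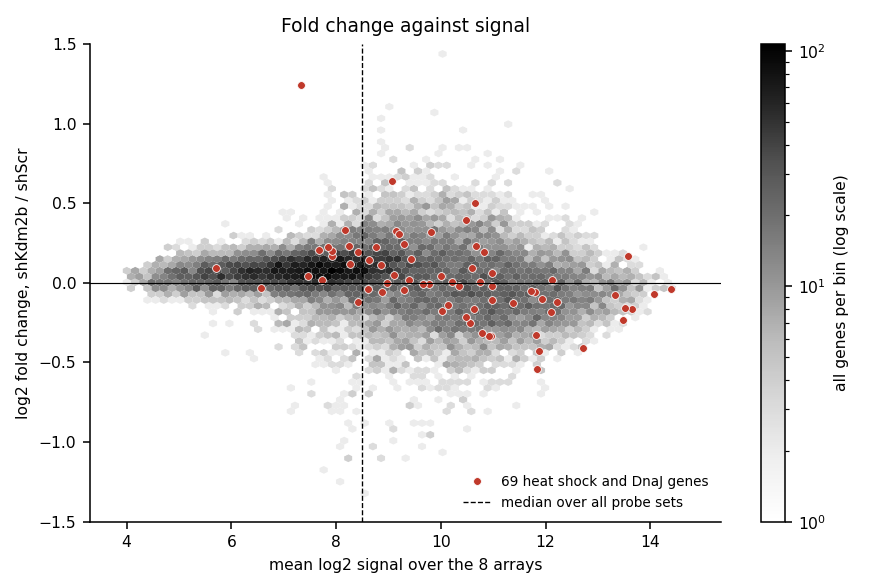
Log2 fold change (shKdm2b over shScr, vertical axis, drawn from -1.5 to 1.5) against the mean log2 signal over the 8 arrays (horizontal axis). Red points are the 69 heat shock and DnaJ genes and the grey hexagons the density of all 19938 genes. The red points slope downward from left to right (Spearman rho -0.58).

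Knockdown replicate 3 was the knockdown array nearest to the control mean for 15 of the 20 genes with an unadjusted p under 0.05, for 9 of the 11 lower and 6 of the 9 higher ones. Kdm2b was highest in replicate 3 of both groups (9.45 in knockdown and 11.34 in control), and its differences within pairs 1 to 4 were -2.06, -1.98, -1.89 and -2.29. Without knockdown replicate 3, 12 genes passed the adjusted p with no fold limit, and 3 did when the array left out was knockdown 2 or 4 or control 2, 3 or 4. Those 3 were Dnajc5g, Hspa12a and Hspbap1, which passed with each of the 8 arrays left out in turn. These counts were taken for the heat shock and DnaJ genes alone. Whether the place of knockdown replicate 3 was a trait of the whole array, or went with its Kdm2b signal, was not tested.

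Heat shock factors bind inverted units of nGAAn. RefSeq windows from 250 bases before to 50 after the start were searched for a facing pair (GAANNTTC), an outward pair (TTCNNGAA) and 3 alternating units (GAANNTTCNNGAA or TTCNNGAANNTTC). Both pairs read the same on either strand, and each run of 3 units contains both pairs. The shares beside them are over the 27025 RefSeq genes with a window, a set wider than the genes of the array. A facing pair was in 13 of 56 windows (23.2%, RefSeq genes 9.04%), with 7 log2 fold changes above 0, 6 below and a median of 0.02. An outward pair was in 6 (10.7%, RefSeq genes 9.60%), with 2 above 0 and 4 below. Runs of 3 units were in 4 (7.14%, RefSeq genes 0.662%), those of Dnajb6, Hspd1, Hspe1 and Hsph1, with 0 above 0, 4 below and a median of -0.20, against 0.03 for the members with a window and no run. Hspd1 and Hspe1 share 1 run, so that the 4 genes are not separate cases. The directions of other genes with a run were not counted. Hspa8 and Hsp90aa1, both heat-inducible, were among the genes without a window and were not searched. The runs are shown in capitals, with the spacer bases between the units included. The runs of Hspd1 and Hspe1 are the same DNA read on opposite strands (chr1:55088054-55088081), with the run at -144 and -89 from the start of each gene. At 18 bases, against 13 for Hsph1 and Dnajb6, this run holds a further alternating unit. The run of Hsph1 (chr5:149636281-149636307, minus strand) begins 15 bases after 1 listed start and 36 after another. That of Dnajb6 lies at chr5:29735845-29735871 on the plus strand.
Hspe1: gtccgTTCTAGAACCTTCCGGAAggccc
Hspd1: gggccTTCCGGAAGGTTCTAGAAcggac
Hsph1: ctgcagaTTCTGGAAAGTTCtcctcag
Dnajb6: gctccgaGAATCTTCCGGAAcgctaga
A match of letters is a description and not a bound site.

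Of 88 other genes of the chaperone network (heat shock factors, co-chaperones, chaperonin and prefoldin subunits, crystallins, mitochondrial and ER chaperones), 86 were measured and 2 were called (2.33%). Hsf2bp, named for binding heat shock factor 2 and known from meiotic recombination, rose. It read 12.35, 12.22, 12.40 and 12.39 in knockdown and 11.49, 11.58, 11.58 and 11.60 in control replicates 1 to 4 (log2 fold change 0.78, standard error 0.06, adjusted p = 0.000548 from limma), with a wide gap between the groups. Hsf2 itself had -0.15 (standard error 0.08, adjusted p = 0.270). Chordc1, an HSP90 co-chaperone, fell, with 11.32, 11.57, 11.81 and 11.50 in knockdown and 12.15, 12.14, 12.08 and 12.34 in control arrays (log2 fold change -0.63, standard error 0.11, adjusted p = 0.0123). Its change came under 1.5-fold without knockdown replicate 1 (-0.55), without control replicate 4 (-0.57), and when the arrays were quantile normalized again (-0.58). Over the shared passages it was -0.50 with an adjusted p of 0.0929.

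Without the fold limit 7 of the 86 passed (8.14%, all genes 10.3%). Besides these 2 they were Hsf4, the heat shock factor of the lens (log2 fold change 0.44, adjusted p = 0.00931 from limma), Tsc1 (0.28, adjusted p = 0.0383), Hikeshi, which carries HSP70 into the nucleus in heat stress (-0.42, adjusted p = 0.0204), the HSP90 co-chaperone Sugt1 (-0.30, adjusted p = 0.0293) and the prefoldin subunit Pfdn6 (-0.37, adjusted p = 0.0282). Of the 33 co-chaperones, 31 of them bright, 10 (30.3%) had a log2 fold change above 0, against 61.7% of all genes and 51.7% of the bright ones. An unadjusted p under 0.05 was found for 13 (39.4%, all bright genes 40.4%), 2 higher and 11 lower, where all bright genes had 2340 higher and 2316 lower. Smallest p in their lists, and not called, were those of Pdia4 in the ER (-0.26, adjusted p = 0.0198, 1 of 2 probe sets), the mitochondrial protease subunit Clpp (-0.23, adjusted p = 0.0829) and the lens crystallin Cryaa (0.16, adjusted p = 0.148). Over all 86 the log2 fold change was above 0 for 32 and below 0 for 54, with a median of -0.03.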

How the data were processed

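Total RNA of 4 shKdm2b and 4 shScr samples was read on Affymetrix Mouse Gene ST arrays, 1 array a sample. The deposited values are log2 signals that the authors made by RMA in the oligo package (version 1.18.1), which corrects background, quantile normalizes and summarizes probes. The annotation behind the 35556 probe sets is not given in the sources used here, and differences of dim probe sets can be compressed. Names came from GEO's platform annotation, updated through RefSeq (GRCm38.p6): 21789 probe sets name 1 gene, 1621 several and 12146 none, and 19919 of 19938 symbols are in RefSeq. A gene is given by its probe set with the smallest p.

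All probe sets were fitted with limma 3.58.1 in R 4.3.3 (lmFit, eBayes), and p-values were adjusted over the whole table (Benjamini-Hochberg). Standard errors and 95% intervals come from that fit. The fit was tested on simulated data. The number of arrays limits the precision.

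Members, lists and tests were chosen with earlier results of these data known, and Dnajc14, Dnajc16 and Dnajc18 were moved to the ER class afterwards. Named genes were those past the gene rule or an adjusted p of 0.05, heat-inducible genes, others by smallest p up to 24, and of other chaperone genes those past the rule or the smallest p of each list. The other genes named, among them Hsf4, Hikeshi, Sugt1, Tsc1, Hspb6, Hspa12b, Dnajc5 and Dnajc5b, were chosen after their values were seen. The alternatives were the replicate number as a block, each array left out, the shared passages, median scaling or quantile normalization again, bright probe sets alone, an intensity trend with a robust prior, the brightest probe set per gene, probe sets with several names, and no fold limit.

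The labels say that samples were collected in parallel. The 2 arrays of a number deviated together from their groups, with correlations of 0.239, 0.118, 0.355 and 0.222 for numbers 1 to 4 (-0.231 to 0.0747 between numbers). All 4 passed the limit of 0.1, and the arrays were treated as pairs in the blocked fit.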

Additional observations from a re-analysis of the deposited data

Results flagged for a closer look

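Of 62 sets of 4 arrays examined, 3 held 1 array whose gap to its nearest neighbour, as a share of the range, passed Dixon's 95% limit, and chance flags about 1 in 20. Hspb8 in shScr replicate 1 stood above the other control arrays with a ratio of 0.852. Dnajb1 in shScr replicate 1 stood above the others with 0.877. Hspe1 in shScr replicate 2 stood above the others with 0.847.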

How the results depend on the processing

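Of 69 heat shock and DnaJ genes 2 were called, and 2 to 3 were called when 1 array was left out (3 without shKdm2b replicate 3, which added Hspbap1). Over the shared passages, with 3 arrays a group, 0 were called in limma, 14 of the 69 had an unadjusted p under 0.05 (all genes 18.8%) and 63 kept the sign. Among bright probe sets 1 of 55 was called, since Dnajc5g was filtered out. With no fold limit 5 passed, and with that limit dropped the replicate block gave 14, the shared passages 0 and single arrays left out 3 to 12 (settings combined after seeing the data). For the shared passages and single arrays left out, the counts with that limit dropped were taken for the 69 genes alone. Of all genes 569 were called, 160 over the shared passages, 2055 with no fold limit and 358 to 829 with 1 array left out. Of the 86 other chaperone genes 2 were called, 1 over the shared passages, 1 after quantile normalization again, 7 with no fold limit and 1 to 2 with 1 array left out. With the fold limit the replicate block gave 2 calls among heat shock and DnaJ genes, 2 among other chaperone genes and 652 over all genes. For the 31 genes named by the rule, 490 values under other settings held 483 on the same side of the threshold, 6 weaker and 1 stronger. A change of sign was counted as reversed only for a called gene, and there were 0 of these. Among genes not called, the sign changed in 2 settings for Hspa1a and in 6 for Dnajb1.

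Signals of dim genes such as Dnajc5g lie below the array medians, where RMA can compress differences, which was not tested. With 4 arrays a group the 95% interval reached past 1.5-fold for all but 59 of the 69 genes.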

Other observations

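In shScr replicate 1, some further chaperone genes beside Hspb8, Dnajb1 and Dnajb4 were high among the control arrays. Others, such as Hsph1, Dnaja1 and Dnajc2, had their lowest control value there. How many chaperone genes were highest or lowest in that array was not counted. Cryab, the alpha B crystallin, read 11.51 there and 9.93, 9.51 and 10.37 in control replicates 2 to 4, against 9.67, 9.46, 9.19 and 9.21 in knockdown replicates 1 to 4 (log2 fold change -0.95, standard error 0.37, adjusted p = 0.155 from limma). Serpinh1, the collagen chaperone, read 10.27 there, 8.96, 8.85 and 9.10 in the other control arrays, and 9.19 to 9.66 in knockdown arrays. Bag3, the partner of Hspb8, read 11.19 there and 10.79, 10.74 and 10.75 in the other control arrays. Its knockdown arrays read 10.97 to 11.12, close to that array. Some fibroblast markers were high in the same array: Col1a1 read 10.37 against 9.63, 9.41 and 9.53 in control replicates 2 to 4, Postn 7.54 against 6.55, 6.31 and 6.12, and Pdgfrb 9.48 against 8.86, 8.63 and 8.85. Knockdown arrays read 9.44 to 9.68 for Col1a1, 6.27 to 6.59 for Postn and 9.03 to 9.66 for Pdgfrb. The value of Pdgfrb in shScr replicate 1 was thus within the knockdown range. Thy1 was lowest there, at 9.40 against 9.47, 9.48 and 9.52. For 6 of the 12 fibroblast markers shScr replicate 1 was the highest control array, and the mean of the 12 was 8.42 there and 8.21, 8.08 and 8.15 in the others. The same held for 6 of the 12 ESC markers, with a mean of 13.03 there and 12.97, 12.88 and 12.86 in the others. The part of these markers in the values of the chaperone genes was not tested. The genes named here were picked after their values were seen.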
